A study of Drosophila melanogaster with 16 samples.

Results

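The genes described here stood higher than wild type in Drosophila embryos of one Lola-I mutant genotype and lower than wild type in embryos of the other. A gene was taken when its mean in wild type at 14 to 17 h was at least 5 CPM (estimated counts per 1000000 counts of the library), every ORC4 library lay above every wild-type library of that age, and every ORE50/ORC4 library lay below every one. Of 17753 genes in the tables, 8820 reached that minimum, and 65 of them met both conditions (0.737%). All are described, since the limit of 150 genes set for the selection was not reached. They were chosen by the CPM values of the 13 libraries aged 14 to 17 h, so their levels in those libraries and the folds between them are a description, with no test. Separately, 13.2% of the 8820 genes lay above wild type in every ORC4 library and 26.4% lay below it in every ORE50/ORC4 library. The reverse order, below wild type in ORC4 and above it in ORE50/ORC4, was met by 32 genes (0.363%).

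Polyadenylated RNA was sequenced from whole embryos of OregonR, a standard wild-type laboratory strain, with 5 libraries aged 14 to 17 h and 3 aged 2 to 4 h. The mutant embryos were of the genotype labelled ORC4 (n = 4), and of ORE50/ORC4 (n = 4), which the labels call transheterozygous, all at 14 to 17 h. Both mutant groups therefore carry ORC4, and both are labelled Lola-I mutants. The labels used here say neither how many copies of ORC4 the first group carries nor what the alleles change, and they do not say whether libraries of a group came from separate embryo collections, so p-values measure the spread between these libraries. The wild-type libraries at 14 to 17 h are numbered 1, 2, 3, 5 and 6, and values are listed in that order, then in the order 1 to 4 for each mutant genotype.

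The gene lola encodes many zinc-finger transcription factors through alternative splicing, of which Lola-I is one form, and is best known for its roles in axon guidance. A fly egg is loaded by the mother with RNA and protein for the fast nuclear divisions of the first hours. The zygotic genome is then switched on, much of the maternal RNA is degraded, and by the later stage most cells have left the division cycle and are differentiating, so transcripts of cell division genes are typically abundant in young embryos and scarce in old ones.

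Library totals ran from 9025882 to 32521626 estimated counts. All ORC4 libraries and wild-type libraries 1, 2 and 3 were deep, and all ORE50/ORC4 libraries and wild-type libraries 5 and 6 were shallow, so between the mutant groups depth and genotype cannot be told apart. The values were estimated over whole gene spans, introns included, so a read in an overlap can go to either gene. Transcripts of lola as a whole stood at 1151 ± 113 CPM (SD, n = 5) in late wild type and 1323 ± 232 (n = 4) in ORC4, which is 0.17 on the log2 scale (SE 0.12, adjusted p = 0.310 by edgeR). They stood at 855 ± 76.7 (n = 4) in ORE50/ORC4, which is -0.42 on the log2 scale (SE 0.12, adjusted p = 0.0117 by edgeR). The table has a single value for all forms of lola, so it says nothing of Lola-I itself. Of the genes of the muscle sarcomere, 20 of 20 rose from 2 to 4 h to 14 to 17 h in wild type, against 48.1% of all genes tested. In whole embryos, fewer cells of a type and less RNA per cell cannot be told apart.

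The distance between the mutant genotypes was wide for a few of the 65 genes and moderate or small for the others. The mean CPM in ORC4 was between 1.26 and 95.7 times that in ORE50/ORC4, with a median of 2.02, and 34 genes reached 2-fold. Set against wild type, the median step was 1.36-fold upwards for ORC4 and 1.44-fold downwards for ORE50/ORC4. A difference of at least 2-fold from wild type was reached by 5 genes on the ORC4 side and by 9 on the ORE50/ORC4 side. The step below wild type was the larger of the 2 steps in 38 genes and the step above it in 27. The gap between the nearest libraries was often thin: it was under 1.1-fold in 57 genes between ORC4 and wild type and in 35 genes between wild type and ORE50/ORC4. The 6 genes with at least 1.1-fold on both sides were CG5568, wisp, dgt5, Cdc16, smo and CG17806.

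**Figure D1:**
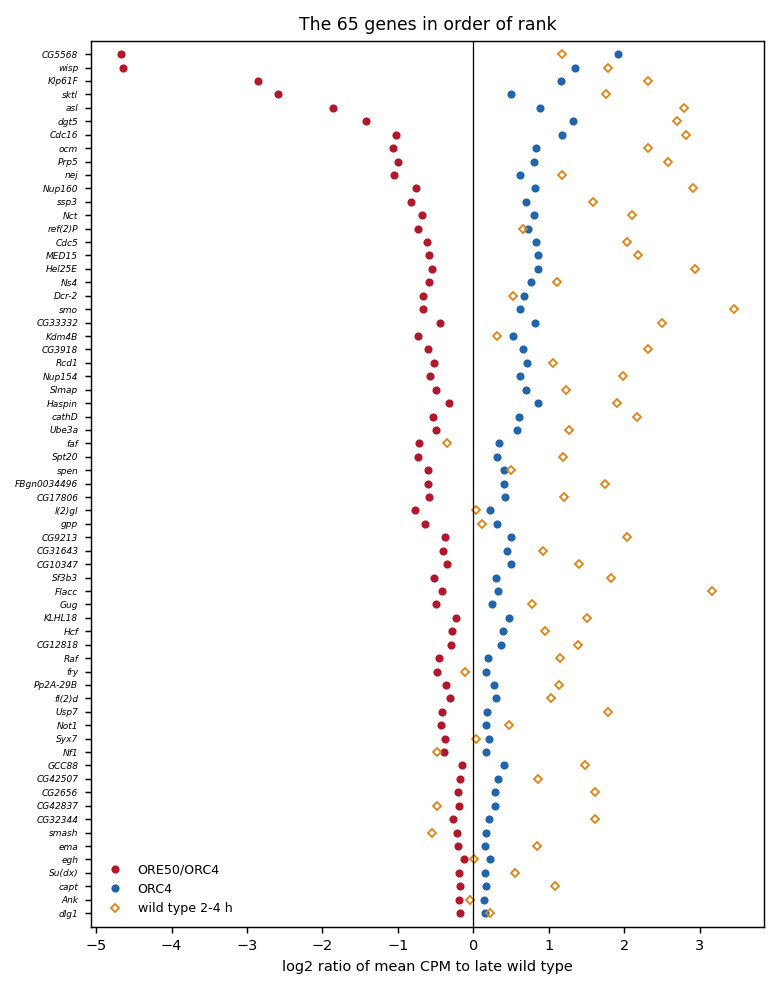
Mean CPM of each of the 65 genes in ORC4 and in ORE50/ORC4 relative to late wild type, on a log2 axis, in the order of the ratio between the mutant genotypes. The genes at the wide end reach 95.7-fold between the mutant genotypes, whereas those at the narrow end reach 1.26-fold.

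How many genes meet the conditions depended on the scaling and on single libraries. With TPM in place of CPM 55 genes met them, 42 of them among the 65. With TMM-scaled CPM it was 29 genes, 28 of them among the 65, and with RLE scaling 42 genes, 38 of them among the 65. Under every scaling tried, 21 of the 65 genes kept their place, among them wisp, CG5568, dgt5, Cdc16, ocm, Nup160, MED15, Hel25E, smo, Kdm4B, cathD, spen, gpp, fl(2)d and CG42837. Klp61F, asl, sktl, Prp5, nej and ssp3 lost it under at least 1. Without ORC4 replicate 3, 322 genes met the conditions, without ORE50/ORC4 replicate 2 it was 110, and without wild-type replicate 5 it was 99. At the CPM minimum the nearest genes inside were CG17806 at 6.17 CPM, CG5568 at 7.52 and CG12818 at 7.65, and the nearest outside were CG32625 at 3.47, CG17359 at 3.15 and asRNA:CR45171 at 2.07. In all, 4 genes had separated libraries but fell below the minimum.

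Genes of cell division and of egg activation had the highest median ratio between the mutant genotypes of the role groups, 6.68. The 7 of them, grouped after the genes were known, were wisp, Klp61F, asl, dgt5, ssp3, Haspin and Cdc16, and their ratios ran from 2.27 to 63.2. These ratios come from the same values that chose the genes. The gene wisp (chrX:11893943-11899920, overlapping no annotated gene) encodes the cytoplasmic poly(A) polymerase that lengthens maternal mRNA tails when the egg is activated. It stood at 19.2, 52.7, 23.3, 52.3 and 55.8 CPM in the wild-type libraries, at 88.8, 149.6, 74.8 and 98.98 in ORC4 and at 0.165, 5.82, 0.443 and 0.0920 in ORE50/ORC4. In 3 of the 4 ORE50/ORC4 libraries wisp was nearly absent. Those 3 libraries held 2, 4 and 1 counts of it, and replicate 2 held 77. The mean was 2.54-fold above wild type in ORC4 and 24.9-fold below it in ORE50/ORC4, or 174-fold below it without ORE50/ORC4 replicate 2. The last fold rests on the 2, 4 and 1 counts, so its size is not measured well.

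Klp61F (chr3L:1241568-1245910) encodes the kinesin-5 motor that pushes spindle poles apart. Its values were 22.6, 35.97, 27.4, 62.8 and 58.5 CPM in wild type, 87.3, 135, 64.05 and 86.8 in the ORC4 libraries and 4.29, 10.05, 4.63 and 3.96 in those of ORE50/ORC4, and the lowest ORC4 library was just above the highest wild-type one. Its span overlaps galene on the other strand. The sum of the pair stood at 104.9 ± 17.5 CPM (SD, n = 5) in wild type, 149 ± 27.2 (n = 4) in ORC4 but 92.1 ± 5.23 (n = 4) in ORE50/ORC4, where the lowest and highest values were 87.1 and 99.4 against 86.2 and 127 in wild type. In ORC4 the sum ran from 122 to 187. On both sides the sum thus overlapped wild type, and the split of reads within the pair was not tested.

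asl (chr3R:5603236-5606543), a centriole protein needed to duplicate centrioles, overlaps no annotated gene. It measured 17.6, 26.3, 18.4, 33.8 and 32.6 CPM in wild type, against 44.4, 66.05, 35.5 and 43.98 in ORC4 and, at the low end, 7.86, 8.24, 5.98 and 6.25 in ORE50/ORC4. The ORE50/ORC4 values lay close together and well below wild type, a mean difference of 3.63-fold, while ORC4 replicate 3 came near the highest wild-type library. dgt5 (chr2R:12465678-12471775), a subunit of the augmin complex that seeds microtubules inside the spindle, was at 8.62, 12.8, 8.45, 15.2 and 12.8 CPM in wild type, with ORC4 at 26.4, 41.2, 20.8 and 27.1 and ORE50/ORC4 at 4.19, 6.34, 3.89 and 2.87. It was one of few genes of the 65 with wide steps on both sides, 2.50-fold and 2.68-fold. Its span overlaps CG8545, which stood at 120.02 ± 30.9 CPM in wild type, 116 ± 22.2 in ORC4 but 63.1 ± 3.36 in ORE50/ORC4.

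Cdc16 (chr3R:23281201-23284123) encodes a core subunit of the anaphase-promoting complex, the ubiquitin ligase that ends mitosis. It was at 15.1, 16.4, 14.5, 26.3 and 25.8 CPM in wild type, 39.7, 60.6, 31.8 and 44.8 in the ORC4 libraries and 10.8, 10.7, 7.31 and 9.66 in those of ORE50/ORC4. Its neighbour CG6763, on the same strand and overlapping it, stood at 50.7 ± 6.29 CPM in wild type, 26.8 ± 8.48 in ORC4 but 13.8 ± 8.97 in ORE50/ORC4. The sum of the pair was 70.3 ± 10.4 in wild type and 71.0 ± 10.5 in ORC4, so the higher Cdc16 value in ORC4 came with a lower CG6763 value of about the same size. In ORE50/ORC4 the sum was 23.4 ± 7.41. The estimated counts of Cdc16 were whole numbers in every library, whereas those of Klp61F and dgt5 were fractional in all 16. The split of reads between Cdc16 and CG6763 was not tested.

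ssp3 (chr2L:18916347-18943960), a spindle protein, was at 58.7, 60.5, 59.04, 85.00 and 86.4 CPM in wild type, against 108, 146, 88.8 and 109 in ORC4 and, at the low end, 33.3, 48.8, 35.3 and 39.8 in ORE50/ORC4. Haspin (chr2R:4014111-4049342), the kinase that marks histone H3 at mitotic centromeres, averaged 77.7 ± 8.48 CPM in wild type, with ORC4 at 141 ± 31.9 and ORE50/ORC4 at 61.9 ± 3.33. Its span was 94.8% intronic, and its estimated counts were fractional in all 16 libraries although it overlaps no annotated gene. The share of intronic reads was not tested. For Haspin the step above wild type was 1.81-fold and the step below 1.25-fold, whereas for wisp and Klp61F the step below was the larger.

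**Figure D2:**
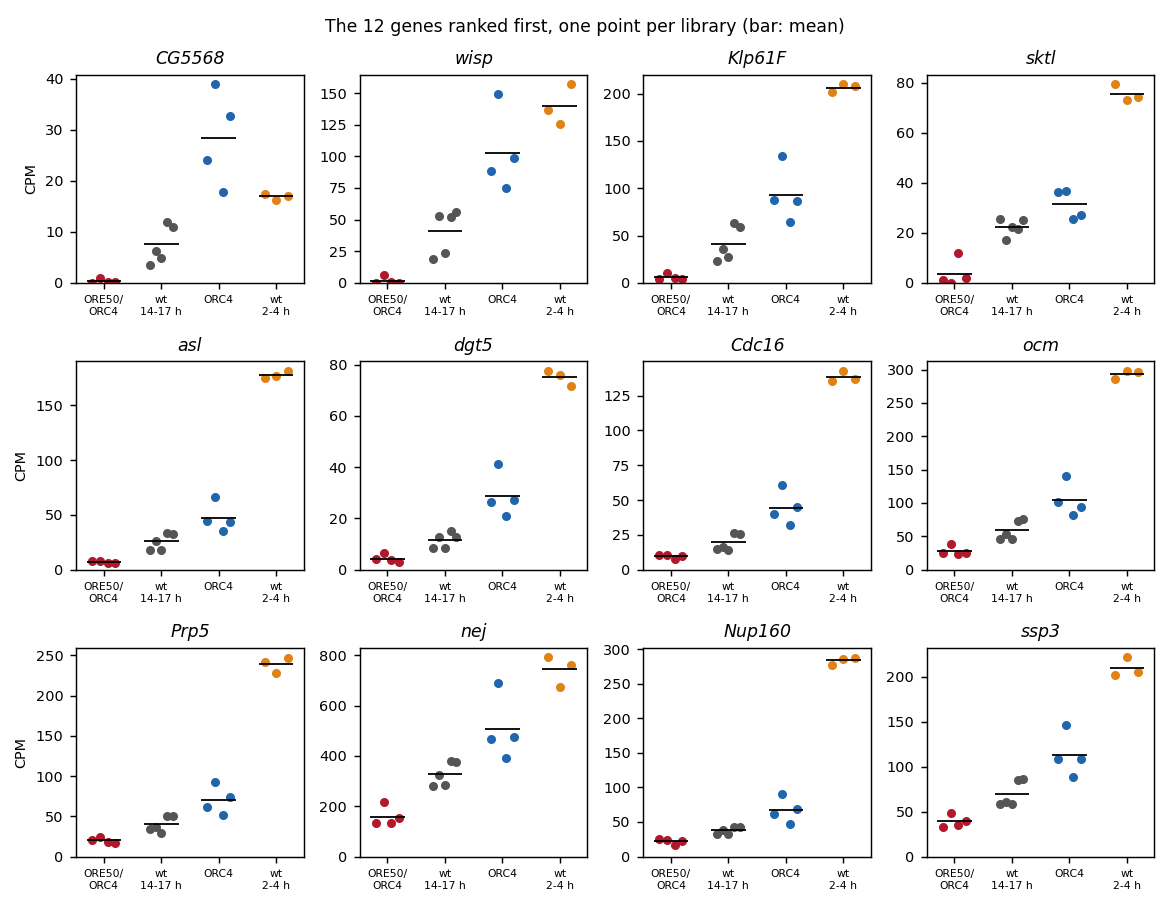
CPM by library for the 12 genes with the widest ratio between the mutant genotypes, with points for single libraries of late wild type, ORC4, ORE50/ORC4 and wild type at 2 to 4 h. By the selection, the ORC4 points lie above the late wild-type points and the ORE50/ORC4 points below them in each panel. The early libraries lie above every late wild-type library.

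The widest ratio of all belonged to CG5568 (chr3L:5871501-5873518), a gene for which no role is given here and one of the lowest in level. It was at 3.48, 6.30, 4.89, 11.9 and 10.98 CPM in wild type, with ORC4 at 24.1, 38.9, 17.8 and 32.8 and ORE50/ORC4 at 0, 0.983, 0.111 and 0.0920. The ORE50/ORC4 libraries held 0, 13, 1 and 1 counts of it, and replicate 2 was the only library of that genotype above the floor of 3 counts. Its mean was 25.4-fold below wild type in ORE50/ORC4, or 111-fold without that replicate. The second fold rests only on libraries below the floor, so its size is not measured well. sktl (chr2R:20827282-20836028), which encodes a kinase making the membrane lipid PI(4,5)P2, came after wisp and Klp61F in ratio, at 25.5, 17.00, 22.4, 21.6 and 25.1 CPM in wild type, 36.4, 36.5, 25.6 and 27.3 in the ORC4 libraries and 1.15, 0, 11.8 and 1.90 in those of ORE50/ORC4. ORE50/ORC4 replicate 3 stood apart, and without it the step below wild type was 21.99-fold in place of 6.03. Reads of sktl share a span with insc on the same strand, and the sum of the pair was 112 ± 5.27 CPM in wild type, 119 ± 7.54 in ORC4 but 138 ± 10.3 in ORE50/ORC4, so the sum was not lower in ORE50/ORC4. In ORC4 the sum ran from 109.6 to 127.7 and overlapped wild type, where it ran from 105.0 to 117.5. ocm (chr2R:24186703-24195290), which overlaps no annotated gene, was at 45.4, 53.2, 46.5, 72.6 and 76.4 CPM in wild type, against 101, 140.3, 81.6 and 93.8 in ORC4 and, at the low end, 25.4, 38.7, 23.04 and 25.2 in ORE50/ORC4.

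RNA processing supplied 8 of the 65 genes, with ratios between the mutant genotypes of 1.51 to 3.49. Prp5 (chrX:15345169-15350021), an RNA helicase that helps the U2 particle bind introns, was at 34.2, 36.1, 29.2, 50.5 and 49.9 CPM in wild type, with ORC4 at 61.6, 92.1, 51.8 and 73.4 and ORE50/ORC4 at 20.5, 23.7, 18.5 and 17.3. Hel25E (chr2L:5539326-5542314), the fly UAP56 helicase of splicing and mRNA export, was at 124, 153, 131, 186 and 186 CPM in wild type, 258, 379, 203 and 290.3 in the ORC4 libraries and 112, 108, 95.1 and 111 in those of ORE50/ORC4. Neither gene overlaps another, and for both the ORC4 libraries spread more widely than those of ORE50/ORC4. The spliceosome proteins Cdc5 and Sf3b3 had ratios of 2.73 and 1.78. The m6A writer subunits fl(2)d and Flacc had narrower ratios, 1.52 and 1.68. Flacc (chrX:18888978-18893636) was at 45.9, 52.3, 43.6, 51.02 and 57.1 CPM in wild type, against 57.5, 72.2, 57.2 and 64.8 in ORC4 and, at the low end, 34.3, 43.3, 34.9 and 37.8 in ORE50/ORC4, and its groups were separated by less than 1.1-fold on each side. Dcr-2, the Dicer of the small interfering RNA pathway, averaged 45.4 ± 8.65 CPM in wild type, 72.3 ± 13.2 in the ORC4 libraries and 28.6 ± 2.80 in those of ORE50/ORC4. Not1, the scaffold of the CCR4-NOT deadenylase, averaged 512 ± 23.2, 574 ± 43.9 and 381 ± 60.2 CPM in the same order.

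A further 11 genes belong to the nuclear pore, transcription and chromatin, with ratios of 1.59 to 3.19. nej (chrX:9665442-9687066), the histone acetyltransferase CBP, was at 280.4, 324, 285, 379.6 and 375 CPM in wild type, with ORC4 at 468, 691, 393 and 474 and ORE50/ORC4 at 133, 218, 133 and 152. On average nej stood 1.54-fold above wild type in ORC4 and 2.07-fold below it in ORE50/ORC4. Nup160 (chr2L:11123777-11129335), a scaffold nucleoporin of the pore's outer ring, was at 32.3, 38.4, 31.96, 43.2 and 43.2 CPM in wild type, 61.4, 90.8, 46.4 and 68.9 in the ORC4 libraries and 25.2, 24.5, 17.1 and 22.7 in those of ORE50/ORC4. Nup154, an inner-ring nucleoporin, had a ratio of 2.29 between the mutant genotypes. MED15 (chr2L:473013-476170), a Mediator subunit bound by activators, was at 34.1, 38.1, 33.4, 49.00 and 50.2 CPM in wild type, against 67.7, 97.4, 54.6 and 76.1 in ORC4 and, at the low end, 29.1, 30.5, 23.7 and 25.9 in ORE50/ORC4. ORC4 replicate 2 was the highest library for all 3 of nej, Nup160 and MED15.

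The most abundant of this group by reads was spen, a large nuclear repressor protein, at 632 ± 45.3 CPM in wild type, with ORC4 at 838 ± 109 and ORE50/ORC4 at 415 ± 91.2. gpp, the Dot1 methyltransferase of histone H3, stood 1.24-fold above wild type in ORC4 and 1.56-fold below it in ORE50/ORC4. Gug, the fly Atrophin corepressor, stood 1.18-fold above and 1.41-fold below. Hcf, a host cell factor protein of several chromatin complexes, stood 1.31-fold above and 1.21-fold below. The histone demethylase Kdm4B had a ratio of 2.38, the NSL-complex protein Rcd1 one of 2.35 and the SAGA-complex protein Spt20 one of 2.07. Kdm4B overlaps CG17724, which averaged 191 CPM in wild type, 201 in ORC4 but 128 in ORE50/ORC4.

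Of the genes of protein turnover and endosomes, 8 were present. ref(2)P (chr2L:19542468-19545548), the fly p62 receptor that carries ubiquitinated cargo to autophagy, was at 145, 156, 160.3, 231 and 226 CPM in wild type, with ORC4 at 286, 378, 248 and 304 and ORE50/ORC4 at 94.5, 119, 111 and 118. In TPM, which here divides by the whole gene span, it was among the 4 highest of the 65 genes, at 143 ± 31.9 TPM (SD, n = 5) in late wild type. faf (chr3R:31777020-31790681), a deubiquitinase first known from eye patterning, was at 187, 197, 180.5, 202 and 207 CPM in wild type, 235, 294, 213 and 241 in the ORC4 libraries and 104, 152, 101 and 116 in those of ORE50/ORC4. Its larger step was the one below wild type. The gamma-secretase subunit Nct had a ratio of 2.80, the lysosomal protease cathD one of 2.20, the ubiquitin ligases Ube3a and Su(dx) ratios of 2.10 and 1.26, the deubiquitinase Usp7 one of 1.51 and the endosomal syntaxin Syx7 one of 1.49.

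Signalling, polarity and membrane genes made up 13 of the 65 and held many of the narrowest separations. smo (chr2L:277582-282167), the membrane transducer of Hedgehog signalling, was at 25.05, 33.8, 27.2, 32.7 and 34.6 CPM in wild type, against 43.7, 57.6, 38.7 and 48.3 in ORC4 and, at the low end, 17.8, 19.8, 19.9 and 19.5 in ORE50/ORC4. The ORE50/ORC4 libraries lay within a narrow band. Raf (chrX:2295466-2343870), the kinase between Ras and MEK, was the lowest of the 65 genes in TPM, at 2.47 ± 0.213 TPM in late wild type. TPM here divides by the whole gene span, which for Raf was 91.2% intronic. Raf was the only one of the 65 found in any of the 30 pathway and cell-type lists used. It was at 47.9, 58.1, 49.8, 56.1 and 53.8 CPM in wild type, with ORC4 at 60.6, 65.3, 59.1 and 58.5 and ORE50/ORC4 at 34.4, 43.8, 39.5 and 37.2, with the ORC4 libraries barely above the highest wild-type one.

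Among the cell polarity genes, l(2)gl (chr2L:9839-21376), the Lethal giant larvae protein of the basolateral membrane, was at 956, 931, 883, 802 and 821 CPM in wild type, 998, 1024, 971 and 1085 in the ORC4 libraries and 468, 541, 501 and 542 in those of ORE50/ORC4. The step to ORE50/ORC4 was 1.71-fold and the step to ORC4 only 1.16-fold. Its partner dlg1, which also maintains the basolateral domain, had the narrowest ratio of the 65, 1.26. Pp2A-29B (chr2L:8366038-8370090), the scaffold subunit of protein phosphatase PP2A, was at 237, 252, 250.4, 254 and 246 CPM in wild type, against 294, 353, 262 and 291 in ORC4 and, at the low end, 195, 191, 181 and 206 in ORE50/ORC4. Slmap, a component of the PP2A-linked STRIPAK complex, had a ratio of 2.28.

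Nf1 (chr3R:25983013-25995737), a Ras GTPase-activating protein, was at 106, 112, 107, 111 and 112 CPM in wild type, with ORC4 at 118, 131, 120.2 and 122 and ORE50/ORC4 at 73.3, 103, 75.2 and 82.1. smash (chr3R:4659579-4712193), a junctional protein, was at 329, 334, 324, 315 and 308 CPM in wild type, 344, 367, 353 and 380.4 in the ORC4 libraries and 255, 303, 263 and 283 in those of ORE50/ORC4. The mean of smash differed from wild type by 1.12-fold in ORC4 and 1.17-fold in ORE50/ORC4, and that of Nf1 by 1.12-fold and 1.32-fold. The remaining genes of this kind were Ank, an ankyrin linking membranes to spectrin, capt, an actin-binding protein, fry, a partner of the Tricornered kinase, and egh, a glycolipid mannosyltransferase, with ratios of 1.26, 1.26, 1.56 and 1.26.

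The other 16 genes without an assigned role beside CG5568 and ocm had ratios of 1.28 to 2.56. CG42837 (chr2R:16197042-16199378) was the highest of the 65 in TPM over whole gene spans, at 259 ± 11.7 TPM in late wild type. It was at 242, 236, 239.9, 259 and 259 CPM in wild type, against 289, 329.9, 282 and 307 in ORC4 and, at the low end, 225, 221, 205 and 215 in ORE50/ORC4. CG17806, the lowest of all in CPM, was at 5.78, 6.20, 5.93, 6.35 and 6.57 in wild type, with ORC4 at 8.60, 9.71, 7.36 and 7.30 and ORE50/ORC4 at 3.56, 3.86, 3.99 and 5.06, so counts limited its precision. CG12818, likewise low, was at 6.89, 7.62, 7.32, 8.28 and 8.14 CPM in wild type, 10.4, 10.4, 8.65 and 10.01 in the ORC4 libraries and 6.37, 6.73, 6.54 and 5.33 in those of ORE50/ORC4. The rest were Ns4, CG33332, CG3918, FBgn0034496, CG9213, CG31643, CG10347, KLHL18, GCC88, CG42507, CG2656, CG32344 and ema. FBgn0034496 had no entry in the annotation used and is given by its identifier.

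The selection did not use the early libraries, and between the stages of wild type most of the 65 genes moved in the same direction. All 65 passed the filter of that fit, and 55 were lower at 14 to 17 h than at 2 to 4 h by edgeR's quasi-likelihood test at an adjusted p under 0.05, against 41.8% of the 11636 genes tested. Only 4 were higher, against 48.1%, and 6 were not called. A fall of at least 2-fold was found for 43 genes and a rise of that size for 0. The median log2 fold change was -1.25, against 0.30 for the 8819 tested genes at the same CPM minimum and 0.18 for all tested. The late wild-type libraries enter both this comparison and the selection, so the comparisons are not independent of each other. For genes in the reverse order, 6 of 32 were lower and 19 higher at the later stage, with a median of 0.54.

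**Figure D3:**
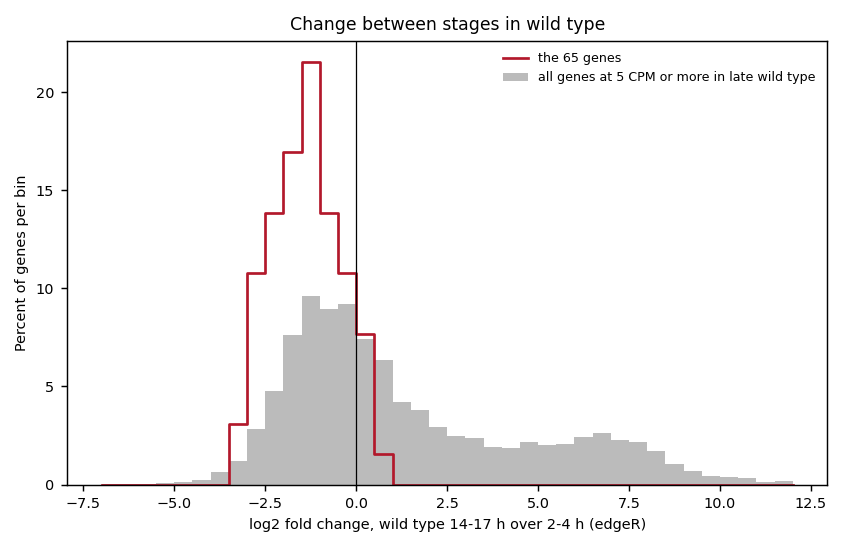
Distribution of the log2 fold change from wild type at 2 to 4 h to wild type at 14 to 17 h for the 65 genes and for all genes at 5 CPM or more in late wild type, as percent of genes per bin. The 65 genes lie mostly below 0 with a median of -1.25, whereas the other distribution has a long arm of rising genes and a median of 0.30.

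The falls were largest for smo, at a log2 fold change of -3.48 (SE 0.13, adjusted p = 3.79e-09), from 328, 352 and 326 CPM at 2 to 4 h. Flacc had -3.19 (SE 0.13, adjusted p = 6.67e-09), from 455, 413 and 474 CPM. Hel25E, Nup160 and Cdc16 followed with log2 fold changes of -2.95, -2.93 and -2.86. Every one of the 12 genes with the widest ratio between the mutant genotypes fell, among them wisp with -1.82 (SE 0.35, adjusted p = 6.46e-04) and Klp61F with -2.35 (SE 0.32, adjusted p = 6.03e-05). By contrast, smash rose with 0.52 (SE 0.09, adjusted p = 3.99e-04), Nf1 with 0.46 (SE 0.08, adjusted p = 4.75e-04), CG42837 with 0.45 (SE 0.11, adjusted p = 0.00357) and faf with 0.33 (SE 0.10, adjusted p = 0.00910). The genes l(2)gl, gpp, fry, Syx7, egh and Ank were not called in either direction, with log2 fold changes of -0.06, -0.14, 0.08, -0.06, -0.04 and 0.03.

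By role, all 7 genes of cell division and egg activation and all 8 of RNA processing fell, with medians of -2.35 and -1.96. Of the 11 genes of the nuclear pore, transcription and chromatin 10 fell, with a median of -1.08. Of the 8 genes of protein turnover and endosomes 6 fell and 1 rose, and of the 13 signalling, polarity and membrane genes 7 fell and 2 rose, with medians of -0.99 and -0.25. Of the 18 genes without an assigned role 17 fell and 1 rose. Of the 34 genes with a ratio of at least 2-fold between the mutant genotypes 33 were lower at the later stage, with a median of -1.87. Of the 31 below 2-fold 22 were lower and 3 higher, with a median of -0.95.

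In level, the early embryos stood above all 3 late groups for most of the 65 genes. Summed over the genes, the early libraries held 16611, 16493 and 16737 CPM, the ORC4 libraries 10272, 12404, 9489 and 10829, late wild type 7887, 8334, 7762, 8612 and 8603, and ORE50/ORC4 5489, 6628, 5501 and 5853. The ranges did not overlap, and for the late groups that order follows from how the genes were chosen. Every early library lay above every late wild-type library for 55 of the 65 genes, against 40.1% of the 8820 genes at the CPM minimum, and below every one for 4, against 50.6%. Every early library lay above every ORC4 library for 45 of the 65 genes, against 39.6%, and below every ORC4 library for 8, against 51%. Every early library lay above every ORE50/ORC4 library for 58, against 38.4%. That last count follows in part from choosing genes that are below wild type in ORE50/ORC4. ORC4 thus lay between late and early wild type for many of these genes: asl averaged 25.7 ± 7.63 CPM in late wild type, 47.5 ± 13.04 in ORC4 and 178 ± 3.29 at 2 to 4 h, and Hel25E 156 ± 29.3, 282 ± 73.8 and 1191 ± 13.3. CG5568 was an exception, at 24.1, 38.9, 17.8 and 32.8 CPM in ORC4 and 17.5, 16.2 and 17.04 at 2 to 4 h.

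**Figure D4:**
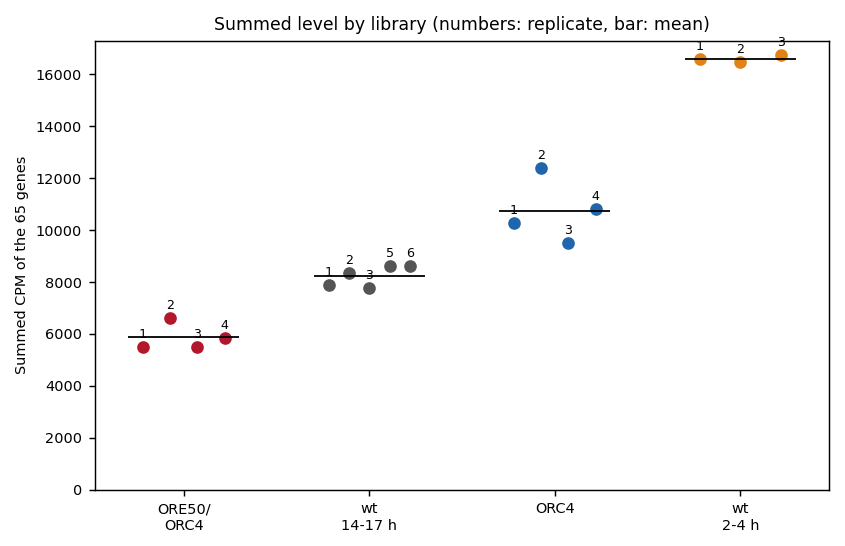
Summed CPM of the 65 genes in each library of ORE50/ORC4, late wild type, ORC4 and wild type at 2 to 4 h, with replicate numbers and a bar for each group mean. The early libraries lie between 16493 and 16737, above all late ones, and ORC4 replicate 2 is the highest late library at 12404.

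Single libraries stood out within the groups, and the same ones for many genes. ORC4 replicate 2 was the highest ORC4 library for 58 of the 65 genes, whereas it was the highest for 19.35% of the 8820 genes. ORC4 replicate 3 was the lowest for 54 of the 65, against 30.8%. In ORE50/ORC4, replicate 2 was the highest for 40, against 31.6%. In late wild type the shallow replicates 5 and 6 were the highest for 25 genes each, against 15.05% and 18.7% of all genes, and replicate 1 was the lowest for 30, against 15.7%. The mean of the deep libraries 1, 2 and 3 lay below the mean of the shallow ones for 58 of the 65 genes, against 39.2% of the 8820, and all 3 deep libraries lay below both shallow ones for 34 genes, against 21.6% of the 8820 genes. Their median log2 ratio of deep over shallow was -0.14, against 0.07 for the 8820. Within wild type the shallow libraries were thus the higher ones, whereas the shallow ORE50/ORC4 libraries were the lower ones and the deep ORC4 libraries the higher ones. The part of depth in the difference between genotypes was not tested.

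In gene structure, the 65 genes had longer median spans than the genes at the CPM minimum, which was not tested. All 64 with an annotation were protein coding. Their median span was 6038 bases against 3273 for the genes at the CPM minimum, and their median exonic length 3939.5 bases against 2291.5. The median number of introns was 5.5 against 3, while the intronic share of the span was alike, 21.6% against 21.9%. A span over 20 kb was found for 11 genes (17.2%) against 11.1%. Of the 64, 32 overlapped another gene, which is 50% against 49.2%, and the 32 genes without overlap gave 27 lower and 1 higher at the later stage with a median of -1.23. The genes lay on all arms, 15 on 2L, 11 on 2R, 11 on 3L, 14 on 3R, 2 on 4 and 11 on X. Genes close to each other were few: the nearest pairs were CG32344 and Cdc5 at 33130 bases on 3L and CG10347 and wisp at 39011 bases on X.

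In the lists for the cell cycle, chromatin regulators and germ cells, more genes were called lower in ORE50/ORC4 than higher in ORC4. In the list for pausing fewer were. On libraries with shared replicate numbers, with that number fitted as a block, the counts lay close for the cell cycle and chromatin. They were 10 lower in ORE50/ORC4 and 9 higher in ORC4 for the cell cycle, and 12 and 11 for chromatin. For pausing they lay apart, at 3 and 10. Among the 22 tested genes of a list for the cell cycle and replication, none of them among the 65, 22 were lower at the later stage, 3 were higher in ORC4 (13.6%, against 15.5% of all genes tested) and 1 lower. In ORE50/ORC4 11 were lower (50%, against 27%) and 2 higher. Mcm7, part of the replicative helicase, and dup, the Cdt1 licensing factor, were among both the 3 and the 11. Mcm7 had log2 fold changes of 0.98 (SE 0.28, edgeR adjusted p = 0.0179) in ORC4 and -1.76 (SE 0.31, edgeR adjusted p = 4.47e-04) in ORE50/ORC4. dup had 0.99 (SE 0.32, edgeR adjusted p = 0.0292) and -2.42 (SE 0.35, edgeR adjusted p = 1.11e-04). The summed CPM of this list ranged from 952 to 1914 in late wild type, 1319 to 2605 in ORC4, 436 to 639.6 in ORE50/ORC4 and 9850 to 10268 at 2 to 4 h. Its wild-type and ORC4 ranges overlapped, and its part in the levels of the 65 genes was not tested.

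In a list of 14 tested genes of polymerase pausing and elongation, 6 were higher in ORC4 (42.9%) and 0 lower, and in ORE50/ORC4 5 were lower (35.7%) and 2 higher. NELF-B, of the pausing factor NELF, was among both the 6 and the 5, at 0.51 and -0.48, as was Clamp, a GA-repeat binding factor, at 0.36 and -0.31. Among 21 chromatin regulators 3 were higher in ORC4 (14.3%) and 2 lower, and in ORE50/ORC4 12 were lower (57.1%) and 1 higher, with none moving both ways. Among 10 germ cell genes 1 was higher and 3 were lower in ORC4, whereas in ORE50/ORC4 8 were lower and 1 higher. The 1 higher in ORC4 was aub, a piRNA-binding protein, at 0.91, and it was lower in ORE50/ORC4 at -1.58. The ribosomal protein genes had another order: of 83 tested 1 was higher and 12 lower in ORC4 (17.2% of all genes were lower), and in ORE50/ORC4 37 were higher (27% of all genes) and 1 lower. Of 19 proteasome genes 12 were higher (63.2%) and 0 lower in ORE50/ORC4, and 3 were higher and 0 lower in ORC4. Of 17 genes of RNA binding and splicing 4 were lower (23.5%) and 0 higher in ORE50/ORC4, and 1 was higher and 1 lower in ORC4.

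These list counts moved with the libraries used. On the libraries with shared replicate numbers, adding the replicate block took the counts higher in ORC4 from 4 to 9 for the cell cycle, 5 to 11 for chromatin and 8 to 10 for pausing, while the germ cell count was 3 with and without it. For genes lower in ORE50/ORC4 on those libraries, pausing had 0 without the block and 3 with it, chromatin 7 and 12, and the cell cycle 9 and 10. Without ORC4 replicate 2 the counts higher in ORC4 were 1 for the cell cycle, 2 for pausing and 0 for germ cells. Without ORC4 replicate 3 they were 5 for the cell cycle and 6 for chromatin. Leaving out wild-type replicate 5 or 6 gave 6 for chromatin, and replicate 1 or 3 gave 3 for pausing. The germ cell count was 0 without wild-type replicate 1, 2 or 3, and 2 without replicate 6. The 5 pausing genes lower in ORE50/ORC4 became 3 without wild-type replicate 5 or 6, or without replicate 2, 3 or 4 of that genotype.

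For 14 complexes or families that include any of the 65 genes, chosen after the genes were known, the other genes were also counted. They were lower in ORC4 less often than genes in general, and the other shares differed less. Of 119 tested, 21 were higher in ORC4 (17.6%, against 15.5%) and 5 lower (4.2%, against 17.2%). In ORE50/ORC4 30 were lower (25.2%) and 24 higher (20.2%), against 27% each. The 6 that were among both the 21 and the 30 were Nup214, Nup93-1, Nup35, Nup358, dgt1 of the NSL complex and Sf3b1. The share of all genes called both ways is not given here, so the 6, and the list genes called both ways, have no background. Of the 18 nucleoporins among the 119 genes 5 were higher in ORC4 and 0 lower, and in ORE50/ORC4 9 were lower and 3 higher. Nup358, of the cytoplasmic filaments, had log2 fold changes of 0.79 (SE 0.25, edgeR adjusted p = 0.0277) in ORC4 and -1.66 (SE 0.26, edgeR adjusted p = 2.07e-04) in ORE50/ORC4. Of the 6 NSL-complex genes 5 were lower in ORE50/ORC4 and 0 higher.

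Other complexes or families had more genes higher than lower in ORE50/ORC4, where 27% of all genes tested were called in each direction. Of 7 CCR4-NOT genes 4 were higher and 1 lower, of 13 SAGA genes 3 and 0, of 8 kinesin-like genes 3 and 0, and of 23 Mediator genes 4 and 3. For SAGA and Mediator the share higher was below the 27% of all genes, and the Mediator counts were close. For the anaphase-promoting complex 2 of 8 genes were higher and 2 lower. Of 7 augmin genes 0 were higher and 3 lower, and of 8 centriole genes 0 and 3. In ORC4, 1 of these augmin genes was higher and 0 lower, and 1 and 0 of the centriole genes. The kinesin-like genes had 1 higher and 1 lower in ORC4, and the anaphase-promoting complex 0 and 0. The catalytic m6A subunits Mettl3 and Mettl14 were higher in ORE50/ORC4, at 0.70 and 0.75.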

How the data were processed

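For each library the authors deposited, per the file headers, gene lengths, estimated counts and TPM values. Per the submitters' processing notes, kallisto, CASAVA 1.8.2 and the build dm6 were used, with no kallisto version. Deposited lengths equalled the whole gene span for 99.3% of matched genes with introns. The Ensembl annotation of the BDGP6 assembly held 17625 of 17753 gene identifiers (99.3%) and gave symbols and 1-based positions.

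CPM was the estimated count divided by the library total. For tests, the deposited estimated counts, made whole by rounding, were fitted in R 4.3.3 with edgeR 4.0.16 (quasi-likelihood, TMM, filterByExpr with a minimum of 10 counts, Benjamini-Hochberg over all genes tested, called at 0.05). The stages were fitted on 8 wild-type libraries and the genotypes on 13 libraries, with no covariate. TPM was used, as deposited by the authors, for levels between genes. Alternatives included DESeq2 1.42.0 and limma 3.58.1 on log2(TPM + 1). A count of 0 allows up to 3 counts; this floor covers counting error only.

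The genes, lists and comparisons were chosen with earlier results of these data known. The role groups, the complexes, the counts of highest and lowest libraries, the early-against-ORC4 counts, the 2-fold and 1.1-fold limits and the shallow-library comparison were added after the values were seen. Genes named in full were the 12 first by ratio, the 8 first without overlap, the 4 highest in TPM, the 5 greatest stage changes in each direction (4 rose), genes in a list and those nearest the CPM minimum.

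The fitting script was tested on simulated data. It first failed the recovery demanded of it for changes of 2-fold in the stage comparison. The demand was then replaced, after that failure, by limits on bias, on calls of the wrong sign and on false calls, which it met, and the fitting code was not changed. Smaller changes were recovered poorly, so a gene not called may still differ.

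Same-numbered libraries 1, 2 and 3 of ORC4 and late wild type deviated together (r = 0.131, 0.416 and 0.319 across genes), which by the limit of 0.1 set for every pair counts as pairing; the labels do not say so. The other groups did not meet that limit.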

Additional observations from a re-analysis of the deposited data

Results flagged for a closer look

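The 65 genes themselves move in opposite directions in the mutant genotypes, since they were chosen to; the difference was not tested.

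In 5 of 87 groups of 4 or 5 libraries examined for the named genes, 1 library stood apart from the others, and chance alone gives about 1 in 20. All 5 were ORE50/ORC4 groups. Replicate 2 held 0.983 CPM of CG5568 against 0 to 0.111 in the others, 5.82 CPM of wisp against 0.0920 to 0.443, 10.05 CPM of Klp61F against 3.96 to 4.63 and 38.7 CPM of ocm against 23.04 to 25.4. Replicate 3 held 11.8 CPM of sktl against 0 to 1.90.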

How the results depend on the processing

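The number of genes meeting the conditions was the least stable result: 65 as reported, 29 with TMM-scaled CPM, 42 with RLE-scaled CPM and 43 without mitochondrial genes in the total. It was 762 when each mutant was set against wild-type libraries of its own depth, where fewer libraries must also be separated. When 1 library was left out it was 65 to 322. The causes of these changes were not tested. The fall of these genes between stages held under every alternative run, with 54 to 58 lower and 4 higher; the replicate block gave 56 lower and 4 higher. At an adjusted p under 0.01, 1257 genes were lower and 855 higher in ORC4. Leaving out 1 library gave 1099 to 1898 higher and 1553 to 2081 lower in ORC4, the lowest without ORC4 replicate 2, and 2692 to 3102 higher and 2723 to 3166 lower in ORE50/ORC4. With the replicate block 1698 were higher and 1629 lower in ORC4, against 1362 and 1324 in the same libraries unblocked, and 2353 and 2758 in ORE50/ORC4, against 2222 and 2343. Of 494 alternative values for 26 named genes, 493 kept their call and direction and 1 passed the threshold anew: l(2)gl with the shallow wild-type libraries alone, at a log2 fold change of -0.29 (edgeR adjusted p = 0.0131). The gene list counts were recomputed for 4 lists; the other lists and the promoter features were not run. In the shallow libraries at 14 to 17 h the floor of 3 counts was 0.227 to 0.332 CPM, which limits CG5568 and wisp in ORE50/ORC4.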
